A study of Mus musculus with 5 samples.

Results

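The genes described here run mitosis and chromosome segregation, and were taken as a named set of 36. Each RefSeq transcript of a listed gene was matched to its symbol, and its values were summed per gene. All 36 were found among the 21930 genes of the table, none was listed at 0, and all had a mean of at least 1 FPKM, as did 9590 genes in all. FPKM counts fragments per kilobase of transcript and is normalized to library depth. Levels are set beside each other below between genes and between libraries, though all-gene medians between libraries moved with the scaling used. Messenger RNA was sequenced from E14 cells, a line of mouse embryonic stem cells for which the labels give the strain C57BL/6. There were 5 libraries, 1 for each group, so no difference between a pair of libraries has a replicate check and none of them was tested. Where "2-fold" is written below, the log2 ratio of (FPKM + 1) was at least 1 in size, a scale that understates the differences of low genes.

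Cells labelled as overexpressing hexokinase 2 (Hk2) together with pyruvate kinase M2 (Pkm2), and normal E14 cells, were grown with leukemia inhibitory factor (LIF), the cytokine that keeps mouse embryonic stem cells undifferentiated. Both were also kept without LIF for 24 hours, after which LIF was added. The last library came from the overexpressing kind after 40 days without LIF, and no normal library of that time was analysed here. The vector, the promoter driving the introduced genes and the number of clones are not stated in the labels. The study asked how the transcriptome of the overexpressing cells differs from that of normal E14 cells. The label is used here as a name only, because Hk2 stood at 98.6 FPKM in the library labelled as overexpressing and at 76.2 FPKM in the normal one, both with LIF, and at 59.0 FPKM in the labelled and 49.7 FPKM in normal cells after withdrawal. Pkm stood at 567 FPKM in labelled and 510 FPKM in normal cells under LIF, and at 564 FPKM in labelled and 611 FPKM in normal cells after withdrawal. The Pkm value is summed over the gene, so it does not single out the M2 form. The Hk2/Pkm2-labelled libraries are called labelled cells below.

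The estimated depth was 25800000 to 28200000 fragments a library. It was read from low values of genes spanning 850 to 1100 bases, as the median within a window fixed in the calculation. The window bounds the estimate, which is rough, and the fragment numbers below rest on it. The fewest fragments behind any value of a member were about 620, for Nuf2. The cell types also differed in the Y-linked helicase gene Ddx3y, which had 0.0225 FPKM in labelled and 11.8 FPKM in normal cells under LIF, 0.0130 FPKM in labelled and 11.8 FPKM in normal cells after withdrawal, and 1.79 FPKM in labelled cells at 40 days. Whether the cell types share an origin was not tested. Markers of pluripotent cells, 10 in number and led by Pou5f1, were all above 0 in every library. Their summed level was 2212 FPKM at 40 days, against 3095 to 3512 FPKM in the other 4 libraries. Pou5f1, at 807 FPKM, and Dppa5a, at 633 FPKM, weighed most in the sum at 40 days. In labelled cells at 40 days, 5 of the 10 were 2-fold lower than with LIF and 0 higher. Of all genes, 8.31% were lower and 14.0% higher. Nanog had 183 FPKM in labelled cells with LIF, 54.5 FPKM after withdrawal and 29.6 FPKM at 40 days. In normal cells Nanog had 150 FPKM with LIF and 59.3 FPKM after withdrawal.

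Entry into mitosis is driven by the kinase Cdk1 with its A-type and B-type cyclins, and by the Polo-like and Aurora kinases. The spindle checkpoint holds Cdc20, an activator of the anaphase-promoting complex, until every kinetochore is attached. The complex then marks cyclins and the inhibitor of separase for destruction, separase opens cohesin, and the midzone and cleavage furrow divide the cell. Embryonic stem cells cycle fast with a short first gap phase, and transcripts of these genes are known to peak together in late cycle phases. The MuvB complex with B-Myb (Mybl2) and FoxM1 is known to act through a short promoter element called the cell cycle homology region, often near CCAAT boxes.

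The promoters are shown because these 2 elements are what many of the genes share outside the values. Of the 36 genes, 30 had at least 1 promoter in the RefSeq table of build GRCm38.p6, giving 33 windows of 300 bases, 250 before and 50 after the start site. Ccna2, Aurkb, Incenp, Kif20a, Tpx2 and Smc4 were not matched. The 120 bases before the start site of 8 genes follow, on the strand of the gene, with TTTGAA or its reverse complement TTCAAA and CCAAT or its reverse complement ATTGG in capitals.
Cdc20 (chr4:118437344-118437463, minus strand): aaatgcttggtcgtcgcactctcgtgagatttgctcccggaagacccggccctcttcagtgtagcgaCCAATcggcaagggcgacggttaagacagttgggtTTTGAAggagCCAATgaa
Cdk1 (chr10:69352913-69353032, minus strand): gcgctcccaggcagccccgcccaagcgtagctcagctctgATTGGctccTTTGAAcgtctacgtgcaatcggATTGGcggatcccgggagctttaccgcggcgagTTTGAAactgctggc
Top2a (chr11:99024190-99024309, minus strand): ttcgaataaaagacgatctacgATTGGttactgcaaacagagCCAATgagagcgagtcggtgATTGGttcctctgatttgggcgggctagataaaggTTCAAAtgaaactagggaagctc
Espl1 (chr15:102296173-102296292, plus strand): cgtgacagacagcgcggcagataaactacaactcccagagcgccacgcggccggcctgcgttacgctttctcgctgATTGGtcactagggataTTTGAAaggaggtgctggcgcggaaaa
Ncapg (chr5:45669805-45669924, plus strand): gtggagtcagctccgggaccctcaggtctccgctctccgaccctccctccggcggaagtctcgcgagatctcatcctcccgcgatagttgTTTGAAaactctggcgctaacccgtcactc
Ccnb1 (chr13:100786487-100786606, minus strand): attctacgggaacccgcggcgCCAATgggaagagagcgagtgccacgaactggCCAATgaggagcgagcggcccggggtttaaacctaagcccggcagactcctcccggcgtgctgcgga
Aurka (chr2:172370571-172370690, minus strand): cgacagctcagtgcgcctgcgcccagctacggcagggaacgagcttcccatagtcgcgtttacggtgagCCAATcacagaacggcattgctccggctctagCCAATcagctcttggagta
Smc2 (chr4:52439101-52439220, plus strand): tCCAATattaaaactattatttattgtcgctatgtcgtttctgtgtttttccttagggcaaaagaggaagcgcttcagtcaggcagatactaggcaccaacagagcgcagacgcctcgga
The first 5 hold TTTGAA or TTCAAA before the start site, and their first base lies at position -18 in Cdc20, at -71 and -15 in Cdk1, at -23 in Top2a, at -27 in Espl1 and at -30 in Ncapg. Position -1 is the last base printed. Ccnb1 and Aurka carry CCAAT at 2 places each in the printed stretch, and Smc2 at 1. Aurka and Smc2 have TTTGAA elsewhere in their window, and no TTTGAA was found in that of Ccnb1.

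Over the whole windows, TTTGAA on either strand was found in the promoters of 22 of the 30 genes (73.3%), against 20.2% of the 27025 genes in the promoter table. CCAAT on either strand was found for 23 of 30 (76.7%), against 41.1% of all genes. Both were found for 20 of 30 (66.7%), against 8.97% of all genes, and the motifs overlapped in 1 member promoter. Counted by promoter, TTTGAA was in 25 of 33 (75.8%), against 17.9% of all 32851. Among the expressed genes that had a promoter, 7738 in number, 13.8% held TTTGAA, 44.5% held CCAAT and 7.19% held both. These matches are a description of letters, not of bound sites.

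Levels ran over a wide range, and each gene largely kept its place in it. Cdc20 was the highest member in all 5 libraries, with 133 FPKM in labelled and 198 FPKM in normal cells under LIF, 132 FPKM in labelled and 176 FPKM in normal cells after withdrawal, and 99.3 FPKM in labelled cells at 40 days. Birc5, the survivin subunit of the chromosomal passenger complex, had 125 FPKM in labelled and 139 FPKM in normal cells under LIF, 108 FPKM in labelled and 116 FPKM in normal cells after withdrawal, and 97.6 FPKM at 40 days. The kinetochore protein gene Cenpf was lowest in 4 libraries, at 4.68 to 6.97 FPKM over all 5, and Nuf2 held 9.29 to 10.4 FPKM. In normal cells with LIF the lowest member was instead Smc2. The summed level of the 36 genes was 1690 FPKM in labelled and 1718 FPKM in normal cells under LIF, 1748 FPKM in labelled and 1717 FPKM in normal cells after withdrawal, and 1376 FPKM at 40 days.

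**Figure D1:**
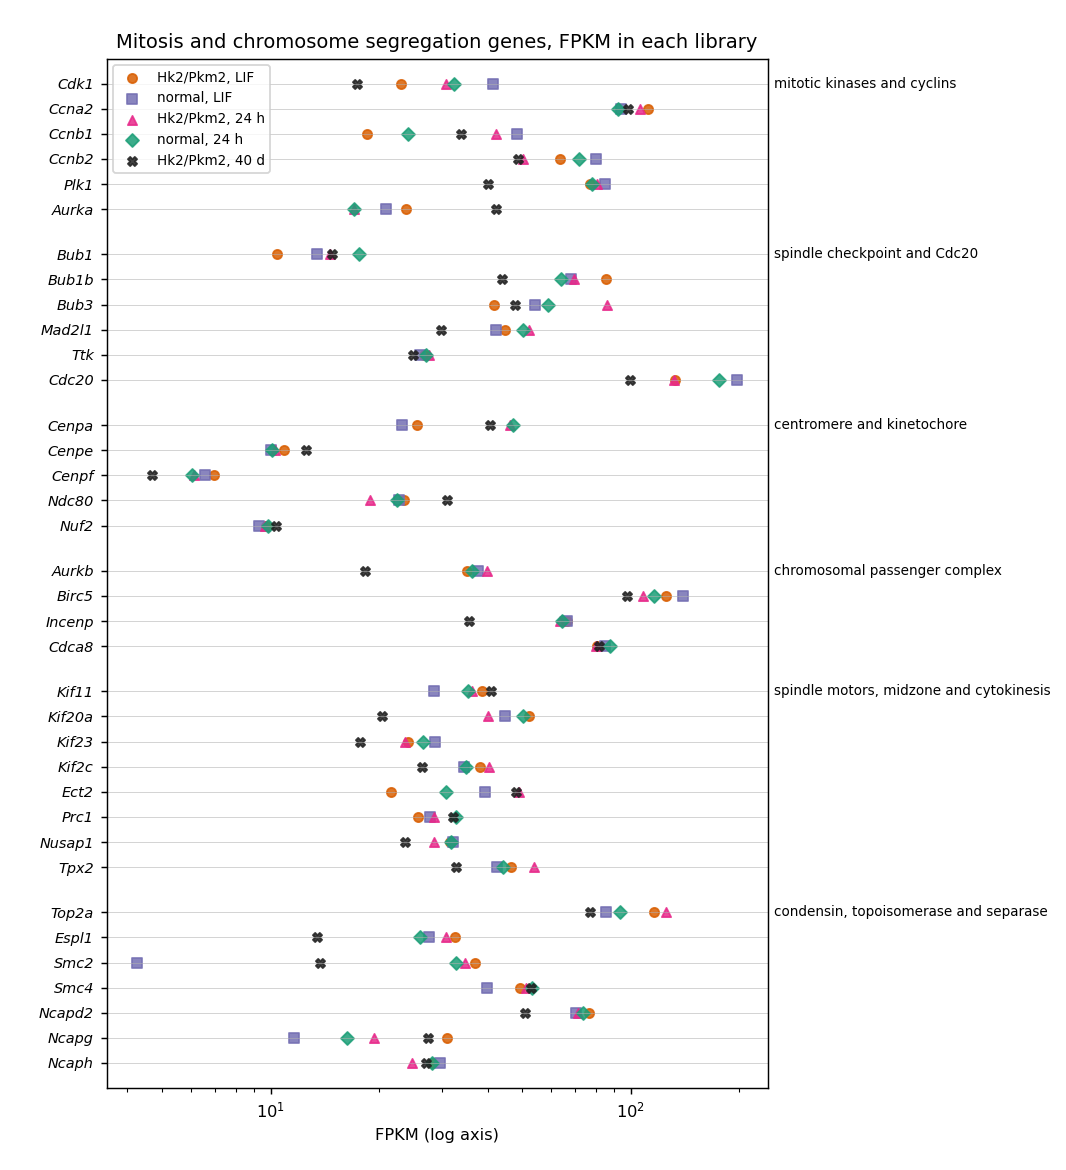
FPKM (log axis) of the 36 genes, grouped by role, in the 5 libraries; each symbol is 1 library. Most genes have their symbols close together, while Smc2 lies at 4.25 FPKM in normal cells under LIF and Aurka at 42.2 FPKM at 40 days, apart from their other values.

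Across the 4 libraries with LIF or after the 24 hour withdrawal, 17 of 36 genes (47.2%) had a highest value of (FPKM + 1) within 1.25-fold of the lowest. That holds for 26.6% of the 9590 genes and for 32.7% of the 5706 genes in the same range of levels. The median ratio of highest to lowest was 1.26 for the members and 1.47 for all genes. Ttk, a checkpoint kinase, was among the steadiest, with 26.6 FPKM in labelled and 25.9 FPKM in normal cells under LIF, 27.5 FPKM in labelled and 27.0 FPKM in normal cells after withdrawal, and 24.8 FPKM at 40 days. With the library of 40 days included, 6 of 36 (16.7%) lay within 1.25-fold, against 10.7% of all genes and 13.5% of the 5706. Within 1.5-fold lay 13 of 36 (36.1%), against 32.2% of all genes and 38.8% of the 5706 in the same range of levels. The median ratio over the 5 libraries was 1.62 for members and 1.77 for all genes. Over the 4 libraries alone, 27 of 36 (75%) lay within 1.5-fold, against 52.2% of all genes and 58.8% of the 5706.

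Between labelled and normal cells with LIF, both of the genes 2-fold higher were condensin subunits, Smc2 and Ncapg, and the mitotic cyclin Ccnb1 was 2-fold lower. That makes 2 of 36 higher and 1 lower, against 4.11% of all genes higher and 5.32% lower. After withdrawal no member was 2-fold different between the cell types, where 4.19% of all genes were higher and 5.18% lower. The median log2 ratio of labelled over normal was 0.049 with LIF (all genes -0.044) and 0.011 after withdrawal (all genes -0.021). With upper quartile scaling these medians were 0.13 with LIF (all genes 0.023) and 0.057 after withdrawal (all genes 0.016), so the sign of the all-gene median depends on the scaling.

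**Figure D2:**
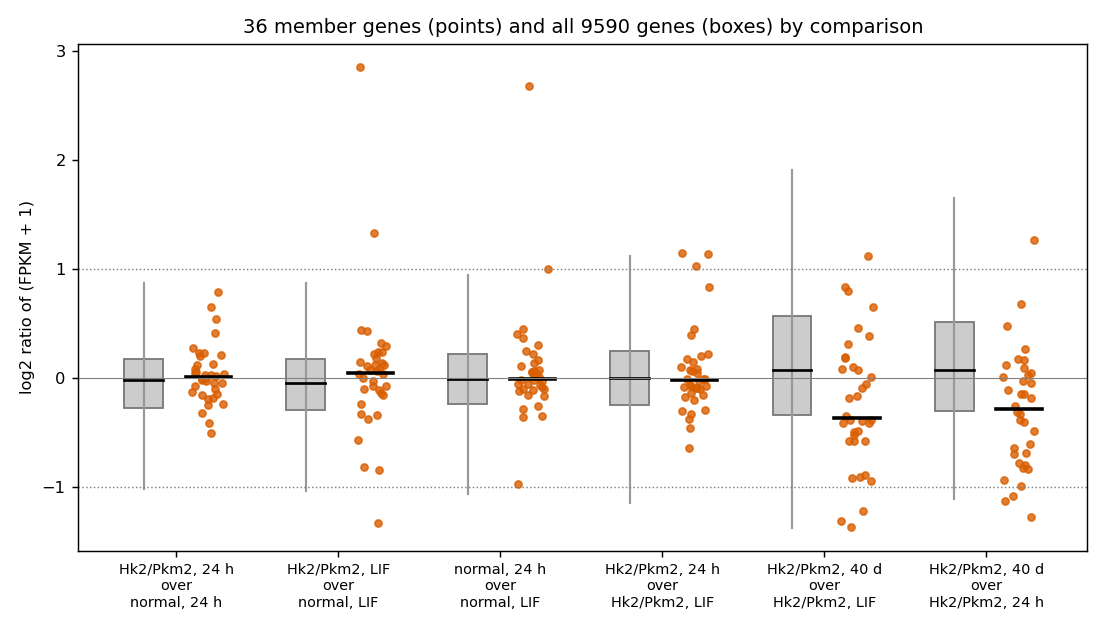
The log2 ratio of (FPKM + 1) for the 36 genes (points, with the median as a bar) beside all 9590 genes (box from the lower to the upper quartile with the median as a line, whiskers over the 5th to 95th percentiles) in 6 comparisons. Dotted lines mark 2-fold; the medians of the members stand near 0 in the first 4 comparisons and at -0.37 and -0.28 in the comparisons with 40 days.

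Smc2, an ATPase that forms the core of condensin with Smc4, had 37.0 FPKM in labelled and 4.25 FPKM in normal cells under LIF, 34.6 FPKM in labelled and 32.7 FPKM in normal cells after withdrawal, and 13.7 FPKM in labelled cells at 40 days. The low value of normal cells with LIF stands apart from the other 4, a log2 ratio of 2.86 for labelled over normal with LIF and of 0.08 after withdrawal. It stood for about 650 fragments on a transcript of 5483 bases, and Smc2 has 1 transcript in the table. The gene lies on mouse chromosome 4 from 52452115 to 52501237 (mm9, plus strand). Its partner Smc4 had 49.2 FPKM in labelled and 40.0 FPKM in normal cells under LIF, 51.3 FPKM in labelled and 53.1 FPKM in normal cells after withdrawal, and 52.9 FPKM at 40 days. Smc4 was thus lowest in the library where Smc2 was lowest, with a log2 ratio of 0.29 with LIF.

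Ncapg, a subunit that binds DNA in condensin I, had 30.8 FPKM in labelled and 11.6 FPKM in normal cells under LIF, 19.3 FPKM in labelled and 16.3 FPKM in normal cells after withdrawal, and 27.4 FPKM at 40 days. It was lowest in normal cells with LIF, like Smc2, and its log2 ratio was 1.33 with LIF and 0.23 after withdrawal. It lies on chromosome 5 from 46061161 to 46091783 (mm9, plus strand) and shares 3364 bases with Lcorl on the other strand. The kit does not mark strand, so fragments of the 2 genes in that stretch cannot be told apart by strand. Overlaps given here and below are of whole gene spans, introns included, and shared exons were not looked at. The condensin I subunits other than Smc2 and Ncapg differed less between these libraries. Ncaph, which closes the condensin ring, had 28.0 FPKM in labelled and 29.5 FPKM in normal cells under LIF, and 24.7 FPKM in labelled and 28.1 FPKM in normal cells after withdrawal. Ncapd2 had 76.4 FPKM in labelled and 70.2 FPKM in normal cells under LIF, and 71.3 FPKM in labelled and 73.6 FPKM in normal cells after withdrawal. Ncapd2 was thus also lowest in normal cells with LIF among these 4 libraries, by a small margin, and Ncaph was not.

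Ccnb1, cyclin B1, stood at 18.6 FPKM in labelled and 48.2 FPKM in normal cells under LIF, at 42.2 FPKM in labelled and 24.0 FPKM in normal cells after withdrawal, and at 33.8 FPKM at 40 days. The order of the cell types was opposite in the 2 cultures, with log2 ratios of -1.33 with LIF and 0.79 after withdrawal. It lies on chromosome 13 from 101548605 to 101556525 (mm9, minus strand). Ect2, the exchange factor that switches on RhoA at the cleavage furrow, followed the same order. It had 21.5 FPKM in labelled and 39.4 FPKM in normal cells under LIF, 48.8 FPKM in labelled and 30.6 FPKM in normal cells after withdrawal, and 48.0 FPKM at 40 days. Cdk1 had 23.0 FPKM in labelled and 41.4 FPKM in normal cells under LIF, a log2 ratio of -0.82, and 30.6 FPKM in labelled and 32.3 FPKM in normal cells after withdrawal. Ccnb2, the second B-type cyclin, was lower in labelled cells in both cultures, with 63.4 FPKM in labelled and 80.1 FPKM in normal cells under LIF, and 50.2 FPKM in labelled and 71.7 FPKM in normal cells after withdrawal. Ccna2, cyclin A2, was higher in labelled cells in both, with 111 FPKM in labelled and 94.1 FPKM in normal cells under LIF, and 106 FPKM in labelled and 92.2 FPKM in normal cells after withdrawal.

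The 4 libraries of the 2 cell types and 2 cultures were also fitted together with limma, a linear model that shares the spread over genes, with cell type and culture as terms. Only 1 residual degree of freedom is left. A p-value from the fit sets the mean difference against a spread drawn from the disagreement of these 2 cultures, shared over genes. It holds no spread between replicates. The labels do not say whether the libraries of 1 cell type were grown from separate lines. At an adjusted p below 0.05 limma called 0 genes for cell type (0% of 9590), at a smallest adjusted p of 0.512, and 0 of the 36 members. At an unadjusted p below 0.05 it marked 918 genes (9.57%), of which 3 are members. These are Top2a at 0.43 ± 0.068 (log2 difference of labelled over normal ± SE; limma adjusted p = 0.512), Cdc20 at -0.49 ± 0.086 (limma adjusted p = 0.512) and Ccnb2 at -0.42 ± 0.089 (limma adjusted p = 0.516). None of them passed. Top2a, the topoisomerase that untangles sister DNA, had 116 FPKM in labelled and 85.1 FPKM in normal cells under LIF, 125 FPKM in labelled and 93.4 FPKM in normal cells after withdrawal, and 77.2 FPKM at 40 days. Smc2 had a fitted difference of 1.47 with an SE of 0.89, and Ccnb1 of -0.27 with an SE of 0.68, since the 2 cultures disagree for both. The median SE was 0.092 over the members and 0.16 over all genes.

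After the 24 hour withdrawal most of the genes stood close to their levels with LIF, 31 of 36 within 1.5-fold in labelled cells (76.6% of all genes) and 33 of 36 in normal cells (79.4% of all genes). In normal cells 1 member, Smc2, was 2-fold higher and 0 were lower, against 4.62% and 5.51% of all genes. In labelled cells 3 members (Ccnb1, Bub3 and Ect2) were 2-fold higher and 0 lower, against 5.79% and 6.07% of all genes. The median log2 ratio of the members was -0.0055 in normal and -0.020 in labelled cells. The comparison in normal cells shares the library of normal cells with LIF with the cell type comparison above, so the low Smc2 value enters both.

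Cenpa, the histone variant that marks centromeres, was higher after withdrawal in both cell types. It had 46.3 FPKM in labelled cells after withdrawal and 25.5 FPKM in labelled cells with LIF, 47.2 FPKM in normal cells after withdrawal and 23.1 FPKM in normal cells under LIF, and 40.6 FPKM at 40 days. The 2 libraries with LIF lie below the other 3. Its log2 ratios of (FPKM + 1), 0.84 in labelled and 0.997 in normal cells, fall short of 2-fold. The plain ratio of FPKM was 1.82 in labelled and 2.04 in normal cells, the latter past 2-fold. Cenpa lies on chromosome 5 from 30969150 to 30977200 (mm9, plus strand). For withdrawal limma called 0 genes (0% of 9590), at a smallest adjusted p of 0.324, and marked 1154 (12.0%) at an unadjusted p below 0.05. Cenpa, at 0.92 ± 0.092 (log2 ± SE; limma adjusted p = 0.324), and Bub1, at 0.41 ± 0.11 (limma adjusted p = 0.404), were the 2 members among those 1154, and neither passed.

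Bub3, a checkpoint protein that docks Bub1 and BubR1 at kinetochores, stood out in labelled cells after withdrawal. It had 86.0 FPKM in labelled cells after withdrawal and 41.7 FPKM in labelled cells with LIF, 58.8 FPKM in normal cells after withdrawal and 54.3 FPKM in normal cells under LIF, and 47.7 FPKM at 40 days. The annotated Bub3 gene shares 11508 bases, its whole length, with Fgfr2 on the other strand. The kit does not mark strand, so fragments of the 2 genes there cannot be told apart by strand. Ccnb1 had a log2 ratio of 1.14 for withdrawal in labelled cells and of -0.98 in normal cells. For Ect2 the log2 ratios were 1.15 in labelled and -0.35 in normal cells. With the highest transcript of each gene alone, the ratio of Ect2 in labelled cells was 0.92, under 2-fold. Bub1, the kinase that starts checkpoint assembly, had 14.7 FPKM in labelled cells after withdrawal and 10.4 FPKM in labelled cells with LIF, 17.6 FPKM in normal cells after withdrawal and 13.4 FPKM in normal cells under LIF, and 14.8 FPKM at 40 days. Its 2 transcripts were split unevenly. NM_009772 held the whole value in 3 libraries and was listed at 0 at 40 days, where NM_001113179 held all of it. Such a 0 may be an estimate that failed. In bulk RNA, fewer cells in a phase and less RNA per cell cannot be told apart, here and below.

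After 40 days without LIF the members stood lower as a group than in either earlier culture of labelled cells. Against labelled cells with LIF, 1 member (Ect2) was 2-fold higher and 3 (Smc2, Kif20a and Espl1) were lower, where 14.0% of all genes were higher and 8.31% lower. Against labelled cells after the 24 hour withdrawal, 1 member (Aurka) was 2-fold higher and 3 (Smc2, Espl1 and Aurkb) were lower, where 12.1% of all genes were higher and 5.78% lower. The median log2 ratio was -0.37 for the members and 0.076 for all genes against LIF, and -0.28 and 0.072 against the 24 hour withdrawal. Of the 36, 23 (63.9%) were below 0 against LIF and 25 (69.4%) against the 24 hour withdrawal, while 44.8% of all genes were below 0 in each. The 2 comparisons share the library of 40 days. With quantile normalization the all-gene medians were -0.031 and -0.044, and 11.4% of genes were then higher and 10.4% lower against LIF, and 9.47% higher and 8.05% lower against the 24 hour withdrawal. Relative to the all-gene median, the members were at -0.44 against LIF on FPKM as deposited and -0.26 with quantile normalization, and at -0.36 and -0.24 against the 24 hour withdrawal. Of the members, 19 had their lowest value of the 5 libraries at 40 days, as did 27.2% of all genes.

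Markers of endoderm also stood higher at 40 days. The 12 listed markers of primitive and visceral endoderm summed to 163 FPKM at 40 days, against 3.28 to 5.63 FPKM in the other 4 libraries, with Dab2 at 52.0 FPKM and Cubn at 40.1 FPKM, while Afp and Sox17 were listed at 0. Of the 12, 6 passed the filter on low values, and only 2 of these (Gata4 and Sox7) averaged at least 1 FPKM over the other 4 libraries. Gata4 stood at 25.6 FPKM at 40 days, against 1.19 to 1.99 FPKM in the others, and Sox7 at 16.1 FPKM, against 0.361 to 3.02 FPKM. The trophoblast list summed to 80.8 FPKM at 40 days, against 13.0 to 29.6 FPKM in the others, mostly from the keratins Krt18 and Krt8, while Cdx2 stood at 0.294 FPKM, Elf5 at 0.0960 FPKM and Tfap2c at 1.76 FPKM, against 4.79 FPKM for Tfap2c in labelled cells with LIF. The fibroblast list was lower, at 37.9 FPKM at 40 days, against 42.3 to 147 FPKM, mostly from Vim. The neural list summed to 26.7 FPKM at 40 days, against 53.5 FPKM in labelled and 36.9 FPKM in normal cells under LIF and 6.88 FPKM in labelled and 4.83 FPKM in normal cells after withdrawal. The part of the change in cell types in the values at 40 days was not tested.

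**Figure D3:**
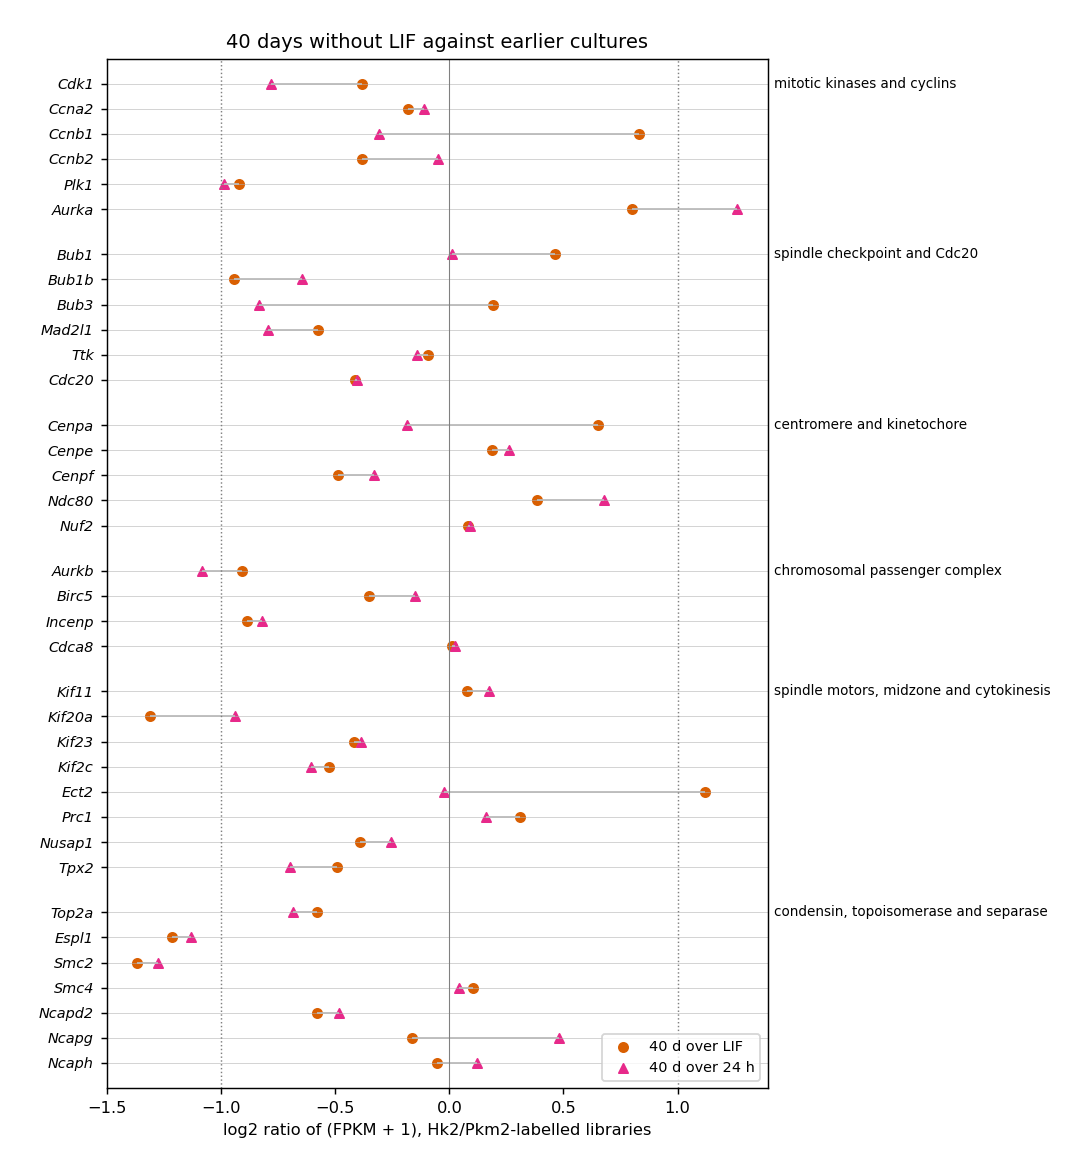
The log2 ratio of (FPKM + 1) of labelled cells at 40 days over labelled cells with LIF (circles) and over labelled cells after the 24 hour withdrawal (triangles) for each gene, grouped by role. Dotted lines mark 2-fold; 23 circles and 25 triangles lie left of 0, with Espl1 and Smc2 beyond the left line in both and Aurka at 0.80 and 1.26 to the right.

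Among the mitotic kinases the Aurora genes differed in opposite directions. Aurka, the kinase of spindle poles, had 23.8 FPKM in labelled and 20.9 FPKM in normal cells under LIF, 17.0 FPKM in labelled and 17.0 FPKM in normal cells after withdrawal, and 42.2 FPKM at 40 days. The library of 40 days lies above the other 4, with log2 ratios of 0.80 against LIF and 1.26 against the 24 hour withdrawal in labelled cells. Aurkb, the catalytic subunit of the chromosomal passenger complex, had 35.1 FPKM in labelled and 37.7 FPKM in normal cells under LIF, 39.8 FPKM in labelled and 36.2 FPKM in normal cells after withdrawal, and 18.2 FPKM at 40 days. There the library of 40 days is the lowest, with log2 ratios of -0.91 and -1.09. The ratio of Aurka to Aurkb in FPKM was 2.32 at 40 days, against 0.678 in labelled and 0.555 in normal cells with LIF and 0.428 in labelled and 0.469 in normal cells after withdrawal. Aurka lies on chromosome 2 from 172181690 to 172196035 (mm9, minus strand) and Aurkb on chromosome 11 from 68859149 to 68865166 (mm9, plus strand). Tpx2, which activates Aurora A on spindle microtubules, stood at 32.7 FPKM at 40 days, against 42.6 to 53.7 FPKM in the other 4 libraries. A transcript of Tpx2 with 6.33 to 8.29 FPKM in those 4 libraries was listed at 0 at 40 days. That 0 may be a failed estimate, so part of the lower Tpx2 value may come from it.

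Plk1, the Polo-like kinase, had 76.9 FPKM in labelled and 85.0 FPKM in normal cells under LIF, 80.8 FPKM in labelled and 78.0 FPKM in normal cells after withdrawal, and 40.2 FPKM at 40 days. The 4 earlier values lie within 1.10-fold of each other and the last lies below all of them, with log2 ratios of -0.92 against LIF and -0.99 against the 24 hour withdrawal. Cdk1 was also lowest at 40 days, with 17.4 FPKM. Ccna2 had 98.2 FPKM and Ccnb2 48.5 FPKM at 40 days. Ccnb1 was higher at 40 days than in labelled cells with LIF (log2 ratio 0.83) and lower than after the 24 hour withdrawal (-0.31).

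In the spindle checkpoint, 5 of 6 genes were below 0 against the 24 hour withdrawal and 4 of 6 against LIF. Bub1b, whose product BubR1 is part of the complex that inhibits Cdc20, had 85.5 FPKM in labelled and 68.4 FPKM in normal cells under LIF, 69.3 FPKM in labelled and 63.8 FPKM in normal cells after withdrawal, and 43.9 FPKM at 40 days. Mad2l1, which encodes Mad2 of the same complex, had 44.6 FPKM in labelled and 42.2 FPKM in normal cells under LIF, 52.2 FPKM in labelled and 50.2 FPKM in normal cells after withdrawal, and 29.7 FPKM at 40 days. Both were lowest at 40 days, with log2 ratios against LIF of -0.95 for Bub1b and -0.57 for Mad2l1. Cdc20 had a log2 ratio of -0.41 in both comparisons.

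Of the genes of the centromere and kinetochore, 4 of 5 were above 0 against LIF, with a median log2 ratio of 0.19, and 3 of 5 against the 24 hour withdrawal, with a median of 0.092. A list of 19 other genes of the constitutive centromere had medians of -0.17 and -0.14. For a list of 17 other kinetochore genes the medians were 0.12 and 0.27. No difference between these groups was tested. Ndc80, which binds microtubules as part of the complex of that name, had 30.8 FPKM at 40 days, against 18.9 to 23.4 FPKM in the other 4 libraries, and was highest there. Nuf2, its direct partner, had 10.4 FPKM at 40 days and 9.29 to 9.85 FPKM in the others. The kinetochore motor gene Cenpe had 12.6 FPKM at 40 days and 10.04 to 10.9 FPKM in the others. Cenpf had a log2 ratio of -0.49 against LIF and of -0.33 against the 24 hour withdrawal, and Cenpa of 0.65 and -0.19.

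In the chromosomal passenger complex the subunits differed. Incenp, the scaffold that binds the kinase, had 66.7 FPKM in labelled and 66.6 FPKM in normal cells under LIF, 63.6 FPKM in labelled and 64.2 FPKM in normal cells after withdrawal, and 35.5 FPKM at 40 days. As for Aurkb, the earlier libraries lie close together and the last lies below them, with log2 ratios of -0.89 against LIF and -0.82 against the 24 hour withdrawal. Cdca8, which encodes the targeting subunit borealin, had 81.4 FPKM at 40 days, against 79.98 to 87.6 FPKM in the other 4 libraries, within the earlier range. Birc5 had log2 ratios of -0.35 and -0.15.

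Among spindle motors and cytokinesis genes, Kif20a was furthest down. This kinesin, which carries the passenger complex to the midzone, had 52.1 FPKM in labelled and 44.7 FPKM in normal cells under LIF, 40.0 FPKM in labelled and 50.3 FPKM in normal cells after withdrawal, and 20.4 FPKM at 40 days. Its log2 ratio was -1.31 against LIF and -0.94 against the 24 hour withdrawal. Kif20a shares 2315 bases with Cdc23 on the other strand. Its ratio to Prc1, which bundles midzone microtubules, was 0.637 at 40 days, against 2.03 in labelled and 1.61 in normal cells with LIF and 1.40 in labelled and 1.54 in normal cells after withdrawal. Prc1 itself had 32.0 FPKM at 40 days and 25.6 to 32.6 FPKM in the others.

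The remaining genes of this role differed less. Kif23, a kinesin of centralspindlin, had 17.8 FPKM at 40 days, against 23.6 to 28.6 FPKM in the other 4 libraries. Kif2c, a microtubule depolymerase, had 26.2 FPKM, against 34.4 to 40.5 FPKM. Nusap1, a spindle microtubule protein, had 23.6 FPKM, against 28.5 to 32.1 FPKM. All 3 were lowest at 40 days, whereas Kif11, the kinesin that pushes spindle poles apart, had 40.8 FPKM there and 28.3 to 38.7 FPKM in the others. Ect2 had a log2 ratio of 1.12 against LIF and of -0.02 against the 24 hour withdrawal, and with the highest transcript alone the first was 0.79.

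Of the genes that shape and part chromosomes, 6 of 7 were below 0 against LIF, with a median log2 ratio of -0.58, and 4 of 7 against the 24 hour withdrawal. Espl1, which encodes separase, the protease that cuts cohesin, had 32.5 FPKM in labelled and 27.4 FPKM in normal cells under LIF, 30.6 FPKM in labelled and 25.9 FPKM in normal cells after withdrawal, and 13.4 FPKM at 40 days. The last library lies below the other 4, with log2 ratios of -1.22 and -1.13. Espl1 lies on chromosome 15 from 102126724 to 102154787 (mm9, plus strand). Smc2 had log2 ratios of -1.37 and -1.28, although its 13.7 FPKM at 40 days is above the 4.25 FPKM of normal cells with LIF. Top2a had -0.58 and -0.68, and Ncapd2, at 50.8 FPKM, had -0.58 and -0.48. Smc4 and Ncaph, at 26.9 FPKM, had 0.10 and -0.06 against LIF.

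Some pairs of subunits and sister genes stood in different proportions in different libraries. Smc2 stood at 0.259 of Smc4 at 40 days, against 0.752 in labelled and 0.106 in normal cells with LIF and 0.674 in labelled and 0.615 in normal cells after withdrawal. Ccnb1 stood at 0.698 of Ccnb2 at 40 days, against 0.293 in labelled and 0.602 in normal cells with LIF and 0.840 in labelled and 0.335 in normal cells after withdrawal. Ndc80 and Nuf2, which join in 1 complex, kept a ratio of 1.95 to 2.97 over the 5 libraries.

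**Figure D4:**
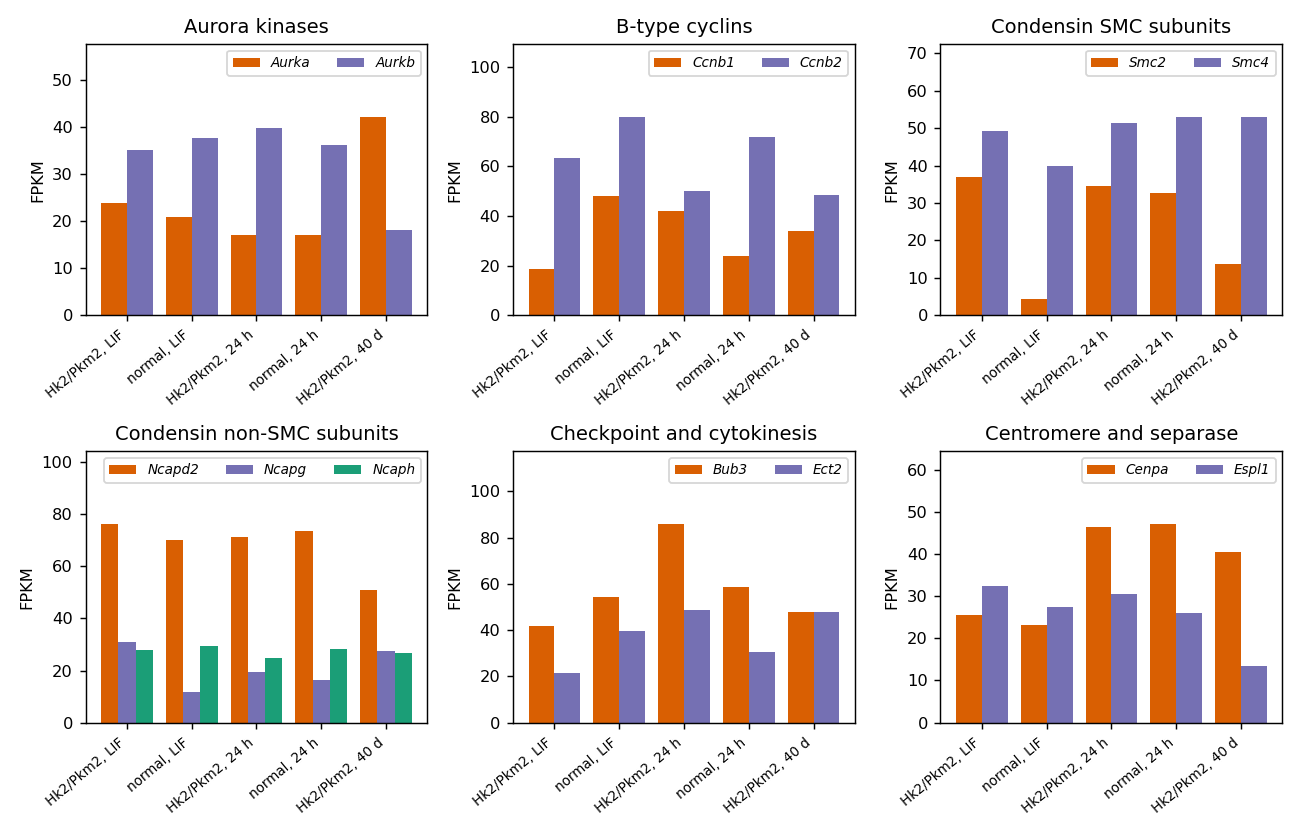
FPKM (linear axis from 0) of sister or partner genes in the 5 libraries; each bar is 1 library and there is no error bar because no group has a replicate. Aurka is above Aurkb at 40 days only (42.2 and 18.2 FPKM), and Smc2 is far below Smc4 in normal cells with LIF (4.25 and 40.0 FPKM).

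Genes of the same pathway outside the set were taken as 143 names in 10 lists, of which 139 passed the filter. Between labelled and normal cells 12 (8.63%) were 2-fold higher and 4 (2.88%) lower in each culture, against 4.11% and 5.32% of all genes with LIF and 4.19% and 5.18% after withdrawal. With LIF, 2 of the 12 and 1 of the 4 were listed at 0 in one of the compared libraries. After withdrawal 5 of the 12 (Ska2, Cenpw, Pds5a, Pcnt and Nfyc) and 2 of the 4 (Knl1 and Kif20b) were, so these rest on a value that may be a failed estimate. Pttg1, which encodes securin, the inhibitor of separase, had 58.9 FPKM in labelled and 8.12 FPKM in normal cells under LIF, 61.1 FPKM in labelled and 7.82 FPKM in normal cells after withdrawal, and 16.6 FPKM at 40 days. In the list of cohesin and its regulators it had the highest ratio among genes above 0 in both libraries of the pair, with log2 ratios of 2.72 with LIF and 2.82 after withdrawal. Pds5a, listed at 0 in 4 libraries and at 39.9 FPKM in labelled cells after withdrawal, was set aside from that order. Nipbl, the cohesin loader, had 13.0 FPKM in labelled and 4.17 FPKM in normal cells under LIF, and 14.7 FPKM in labelled and 5.37 FPKM in normal cells after withdrawal. Sgo1, the shugoshin that protects centromeric cohesin, had 22.0 FPKM in labelled and 7.37 FPKM in normal cells under LIF, and 16.8 FPKM in labelled and 7.76 FPKM in normal cells after withdrawal. In that list 14 of 17 genes were above 0 with LIF (median log2 ratio 0.27) and 13 of 17 after withdrawal (median 0.14). Pds5a is counted among the 13. Over all genes 44.1% were above 0 with LIF (median -0.044) and 46.2% after withdrawal (median -0.021). The difference between the list and all genes was not tested. Pmf1, a kinetochore protein of the Mis12 complex, was in opposite order in the 2 cultures, as Ccnb1 was but the other way round, with 57.7 FPKM in labelled and 13.9 FPKM in normal cells under LIF and 12.2 FPKM in labelled and 58.5 FPKM in normal cells after withdrawal.

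For the 24 hour withdrawal, 7 of the 139 (5.04%) were 2-fold higher and 6 (4.32%) lower in normal cells, against 4.62% and 5.51% of all genes. In labelled cells 5 (3.60%) were higher and 4 (2.88%) lower, against 5.79% and 6.07% of all genes. At 40 days 7 (5.04%) were higher and 11 (7.91%) lower against LIF, where 14.0% of all genes were higher and 8.31% lower. Against the 24 hour withdrawal 6 (4.32%) were higher and 9 (6.47%) lower, where 12.1% of all genes were higher and 5.78% lower. The shares of lower genes at 40 days are thus near those of all genes, and of the lower genes 2 of 11 and 4 of 9 were listed at 0 in one of the compared libraries. The median log2 ratios were -0.062 and -0.059. The lower genes included Mybl2, which encodes B-Myb. Mybl2 had 91.4 FPKM in labelled and 109 FPKM in normal cells under LIF, 74.3 FPKM in labelled and 70.1 FPKM in normal cells after withdrawal, and 12.7 FPKM at 40 days. That is a log2 ratio of -2.75 against LIF and -2.46 against the 24 hour withdrawal, with the last library far below the rest. The list of factors that transcribe late cell cycle genes had a median of -0.24 against LIF, and in it 3 of 17 genes were 2-fold lower and 0 higher. Foxm1 is in that list and had 17.4 FPKM at 40 days, against 16.0 to 20.5 FPKM in the other 4 libraries. Gtse1, a microtubule and p53 binding protein, had 29.95 FPKM at 40 days, against 65.0 to 81.0 FPKM in the other 4 libraries. Fzr1, which encodes the other activator of the anaphase-promoting complex, had 19.3 FPKM in labelled and 15.2 FPKM in normal cells under LIF, 11.1 FPKM in labelled and 57.7 FPKM in normal cells after withdrawal, and 40.5 FPKM at 40 days. Its highest value was thus that of normal cells after withdrawal. Of the 30 genes of DNA replication, 0 were 2-fold higher and 1 (Cdc45) was lower against LIF, at a median of -0.00055, and Cdc45 was listed at 0 in 2 other libraries. No difference between these lists was tested.

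The members whose promoter holds TTTGAA had a median log2 ratio of -0.38 at 40 days against LIF (22 genes), and those without it of 0.014 (8 genes). Over all expressed genes with a promoter the medians were 0.058 with the motif (1068 genes) and 0.078 without it (6670 genes). Against the 24 hour withdrawal the members had -0.36 with the motif and -0.070 without it. Cdk1, Cdc20, Top2a, Espl1 and Ncapg, all printed above with the motif in capitals, had ratios of -0.38, -0.41, -0.58, -1.22 and -0.16 against LIF. Members with the motif were not all lower. Ect2 (1.12), Aurka (0.80), Cenpa (0.65), Ndc80 (0.38), Prc1 (0.31), Bub3 (0.19), Kif11 (0.077) and Cdca8 (0.013) hold it and were above 0 against LIF. The difference between the 22 and the 8 genes was not tested, and Aurkb, Incenp and Kif20a, which are among the lowest at 40 days, are in neither group. For CCAAT the medians against LIF were -0.16 for 23 members with it and -0.35 for 7 without it. Against the 24 hour withdrawal the order was reversed, at -0.31 with it and -0.15 without it.

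Some values carry a limit of the annotation. Ccnb1, Ccnb2 and Aurkb have named pseudogenes in the annotations used, and the labels do not say how multiply mapping fragments were counted, so their values are uncertain. Ccna2 shares 864 bases with Exosc9 on the other strand, Nusap1 shares 172 with Oip5, Smc2 shares 258 with a pseudogene and Cdc20 shares 53 with Elovl1. Of 48 transcripts of the 36 genes, 6 were listed at 0 in all 5 libraries.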

How the data were processed

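Messenger RNA of 5 libraries was sequenced after TruSeq RNA v2 preparation, which does not mark strand, per the labels' protocols. The deposited table gives FPKM per RefSeq transcript, made by the authors with TopHat2 2.0.7, Cufflinks 2.0.2 and build mm9, per the submitters' processing notes; their settings are not stated there. FPKM are not counts, so no count model was run.

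Transcripts were named by accession from a RefSeq table (GRCm38.p6); 28066 of 28698 matched. FPKM was summed per gene, 337 genes with a hyphen in a cell were left out, and genes averaging at least 1 FPKM were kept. Ratios are of log2(FPKM + 1). Coordinates are from GENCODE vM1 on NCBIM37 (mm9). An exact 0 can be a failed estimate and is called listed at 0. Limma 3.58.1 (R 4.3.3; trend, Benjamini-Hochberg over 9590 genes) was fitted to 4 libraries and checked on simulated data. Every member could be named; from each other list, up to 4 genes a comparison with the largest ratios and above 0 in both libraries. Foxm1, Cdx2, Elf5, Ddx3y and genes listed at 0 were named outside that rule. Members and lists were chosen with earlier results of these data known. Alternatives were pseudocount, filters, scaling, transcript choice and leaving out a library.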

Additional observations from a re-analysis of the deposited data

Results flagged for a closer look

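Ccnb1 and Ect2 were singled out because labelled and normal cells stood in opposite order in the 2 cultures. For Ccnb1 the log2 ratio of labelled over normal cells was -1.33 with LIF and 0.79 after withdrawal. For Ect2 it was -0.84 with LIF and 0.66 after withdrawal. With 1 library a group the difference between the cultures was not tested. Ratios of at least 1.5-fold in opposite directions were found for 2 of 36 members (5.56%) and for 235 of 9590 genes (2.45%).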

How the results depend on the processing

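No 2-fold difference changed its direction under the alternatives run. The medians for withdrawal lie near 0 and crossed it. With upper quartile scaling they were 0.0087 in labelled cells (-0.020 on FPKM as deposited) and 0.054 in normal cells (-0.0055 as deposited), and with quantile normalization 0.042 in normal cells. For withdrawal in normal cells, members 2-fold higher were 2 instead of 1 with a pseudocount of 0.1, with quantile normalization and with upper quartile scaling, and members 2-fold lower were 1 instead of 0 with a pseudocount of 0.1. At 40 days against LIF, members 2-fold higher were 0 instead of 1, and lower 4 instead of 3, with the highest transcript only. At 40 days against the 24 hour withdrawal, members 2-fold lower were 4 instead of 3 with a pseudocount of 0.1, with upper quartile scaling and with the highest transcript only. Limma called 0 genes for cell type and for withdrawal under each alternative run. Members within 1.25-fold over the LIF and 24 hour libraries, 17 with all 4, were 19 to 22 (52.8% to 61.1%) when each of the 4 libraries was left out in turn, against 35.9% to 38.3% of all genes. That alternative was chosen after seeing the data, and with fewer libraries the count cannot fall. Leaving out a library leaves limma no residual degree of freedom, so that fit was not run. No paired analysis was possible because the labels number no replicates, and the limma fit already takes cell type within each culture. With 1 library a group, a difference between groups and one between single libraries cannot be told apart. The fewest fragments behind a value of a member were about 620, at a depth that is itself an estimate.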
